A study of Bos taurus with 20 samples.

Results

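The immediate early transcription factors described here are 10 genes, FOS, FOSL1, FOSL2, JUN, JUNB, EGR1, ATF3, NR4A1, NR4A2, and MYC, of 22550 genes or transcripts on a bovine Agilent array. They were chosen by name, as the non-control probes annotated to 1 of these symbols, and 26 of the 61325 probes met that rule. All 20 arrays came from antral follicles of 3 to 6 mm from ovaries of slaughtered cows, with 4 arrays each of theca cells (TH), granulosa cells (GC), immature cumulus cells (CC), cumulus cells after 4 h of in vitro maturation (IVM), and immature oocytes (OO). Each array measured 1 RNA sample in 1 color. The animals carried no labelled treatment, breed, or age, and the 4 samples of a group were numbered 1 to 4. The study's methods describe the samples of TH, GC, CC, and OO as biological replicates. For CC after IVM neither the methods nor the labels say whether the samples came from separate cultures or animals, so p-values that use them measure only the spread between these samples, which may be technical. For CC after IVM, the complexes were cultured for 4 h before the cumulus was detached and lysed, whereas the other cells were frozen after collection. The composition of that culture medium and the time between slaughter and lysis are not given in the sources used here.

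Immediate early genes are transcribed within minutes of a stimulus from factors that the cell already holds, so no new protein is needed to start them. FOS, FOSL1, and FOSL2 encode partners of JUN and JUNB in the dimeric activator AP-1, EGR1 encodes a zinc finger factor, ATF3 a stress-responsive bZIP factor, NR4A1 and NR4A2 orphan nuclear receptors, and MYC a factor that binds E-boxes with MAX. In the follicle they are known to respond to gonadotropins and EGF-like ligands, and elsewhere to growth factors, stress, and tissue handling. Their transcripts are typically short-lived, and many carry AU-rich motifs near their 3′ ends that speed their decay.

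The probes are 60-mers, and the array design gives 22 distinct sequences for the 10 genes. FOSL1, whose signal appeared after IVM, is shown in full because 1 of its probes lies in the part encoding the leucine zipper, through which Fos and Jun proteins pair. Capitals in it mark 3 CTG codons, for leucine, that start 21 bases apart.
FOSL1, zipper probe: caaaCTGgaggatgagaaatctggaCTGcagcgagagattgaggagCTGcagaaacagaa
FOSL1, other probe: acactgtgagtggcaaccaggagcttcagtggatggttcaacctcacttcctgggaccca

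The remaining sequences are 30-base windows, shown because FOS, JUNB, and NR4A2 carry the AU-rich pentamer ATTTA in their probes and differed in how their level changed after IVM. Capitals mark the pentamer, or in JUN the polyadenylation signal AATAAA.
FOS: acttgaatgaaaaATTTAagcattgtttgc
JUNB: ggtttctaaaggATTTAttttaatttgtgt
NR4A2: aaaggcttgtaaATTTAtccaatgcagttt
JUN: gcactctgagtttaccatttgtAATAAAgt

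ATTTA was searched on the printed strand and was found in 7 of the 22 distinct probes, in FOS, JUNB, NR4A2, and MYC, or 4 of the 10 genes. The 2 probes of JUNB, of NR4A2, and of MYC share runs of 40, 47, and 27 bases and hold the same site. The count of 7 therefore repeats sites. ATTTA occurred in 6.83% of the 50909 distinct non-control 60-mers of the array, and AATAAA in 7.97%. No share of genes was computed for the array. A match describes only these letters, and the windows come from probe design rather than from a map of regulatory sites. The genes holding the pentamer went in different directions after IVM, with FOS and MYC lower, NR4A2 higher, and JUNB not passing the test.

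In the array annotation, built on UMD 3.1, the transcript of FOS spans chr10:86883739-86887169, that of FOSL1 chr29:44673879-44679325, and that of FOSL2 chr11:71329772-71349193. JUN lies at chr3:87841042-87843087, JUNB at chr7:13851131-13852933, and EGR1 on the same chromosome at chr7:51438727-51442500. ATF3 lies at chr16:72820026-72832974, NR4A2 at chr2:39999717-40017015, and MYC at chr14:13769244-13774438. NR4A1 has probes to 2 transcripts, chr5:27977007-27992869 and chr5:27977007-27985786.

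Each value is the log2 processed signal of a gene after the array's own 75th percentile over non-control probes was subtracted, so 0 is the level of that percentile. Values are compared between groups within a gene and never between genes. Between 49.3% and 68.8% of probes were well above background on the OO arrays, between 54.2% and 58.3% on the IVM arrays, and between 56.7% and 62.8% on the others. No spot was saturated. The 16 arrays of TH, GC, CC, and OO lay on 2 slides, with replicates 1 and 2 of every group on the first and replicates 3 and 4 on the second. All 4 IVM arrays lay on a slide of their own, so slide and IVM cannot be told apart in any comparison that uses them. These are bulk samples, in which fewer cells of a type and less RNA per cell cannot be told apart.

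Marker genes of each cell type were set against the labels. The summed level of the 5 theca markers was 575 to 830 in TH, against 29.8 to 115 in GC and 22.7 to 32.6 over CC and CC after IVM. The 4 granulosa and cumulus markers summed to 110 to 451 in GC, 381 to 393 in CC, and 625 to 769 after IVM. Of these INHBA rose after IVM by 1.07, while AMH, CYP19A1, and FSHR fell by 1.04, 1.26, and 1.25, all 4 passing the test. The 6 oocyte markers summed to 248 to 330 in OO, where the 4 granulosa and cumulus markers summed to 2.20 to 3.02. INHBA and AMH were above background on 4 of 4 OO arrays, FSHR on 2, and CYP19A1 on 0. The mean of INHBA was 1.21 in OO, against 8.32 in CC. Any part of cumulus transcripts in the OO levels below was not tested. Within CC the oocyte markers summed to 0.561 to 3.00, all 6 above background, and after IVM to 0.161 to 0.560, 3 of the 6 above background on at least 3 arrays. ZP2, ZP3, ZP4, and NLRP5 were lower after IVM, and the part of this difference in the results below was not tested. The 3 blood markers summed to 0.0843 to 0.210 in CC and 0.448 to 0.966 after IVM, and all 3 passed as higher. CD68, a macrophage marker, was above background on all 4 arrays of both groups and rose by 2.15 (adjusted p = 0.0019), whereas PTPRC was above background on no CC or IVM array and HBB on 0 of 4 CC arrays and 2 of 4 IVM arrays. The 3 endothelial markers summed to 0.0202 to 0.0345 in CC and 0.0492 to 0.115 after IVM, and 2 of them passed as higher. VWF, above background on 1 of 4 CC arrays and 3 of 4 IVM arrays, was at least 1.64-fold higher (adjusted p = 0.0039), PECAM1 was above background on 0 and 1 arrays, and CDH5 on none. Within TH the endothelial markers summed to 1.35 to 4.39, against 0.040 to 0.11 in GC. The blood markers summed to 0.20 to 0.46 in TH and, overlapping, to 0.085 to 0.31 in GC. PTPRC was above background on 4 of 4 TH arrays and 0 of 4 GC arrays. The part of these differences in the results below was not tested either. Of the early cumulus genes of maturation, HAS2, which makes the hyaluronan of the expanding matrix, was at least 160-fold higher after IVM, and the EGF-like ligands AREG and EREG were at least 15.4-fold and at least 8.12-fold higher.

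The main comparison asks how the 10 factors differed between CC collected directly and CC after 4 h of IVM. JUN, FOS, MYC, and EGR1 were lower after IVM, FOSL1 and NR4A2 were higher, and JUNB, ATF3, NR4A1, and FOSL2 did not pass the test. Thus 6 of the 10 passed, 2 higher and 4 lower. Of all 22550 genes, 45.8% passed in this comparison, 30.3% higher and 15.5% lower, so passing as such does not set these genes apart. Among the 14762 genes above background on at least 3 arrays of CC or of CC after IVM, which include all 10 factors, 45.3% passed. With the fit limited to these genes, 48.3% of the calls were higher and the median difference was 0.014. The excess of higher calls over all genes is therefore not found among the genes above background, and it is no measure of how unusual the falls are. The arrays of both groups did not overlap for 5 factors, with FOSL1 and NR4A2 all above and FOS, JUN, and MYC all below, and for 44% of all genes, 29.1% above and 14.9% below. The shares without overlap were not computed for the genes above background alone. The median difference over all genes was 0.37 on the log2 scale, and among all calls 66.1% were higher. That share was 43.2% under quantile normalization, 83.3% under normexp background correction, and 58.2% with the percentile taken over probes above background on all arrays, while the median difference ranged from 0.01 to 0.55 over these scalings. The changes of the 6 called genes kept their direction under each of them.

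**Figure D1:**
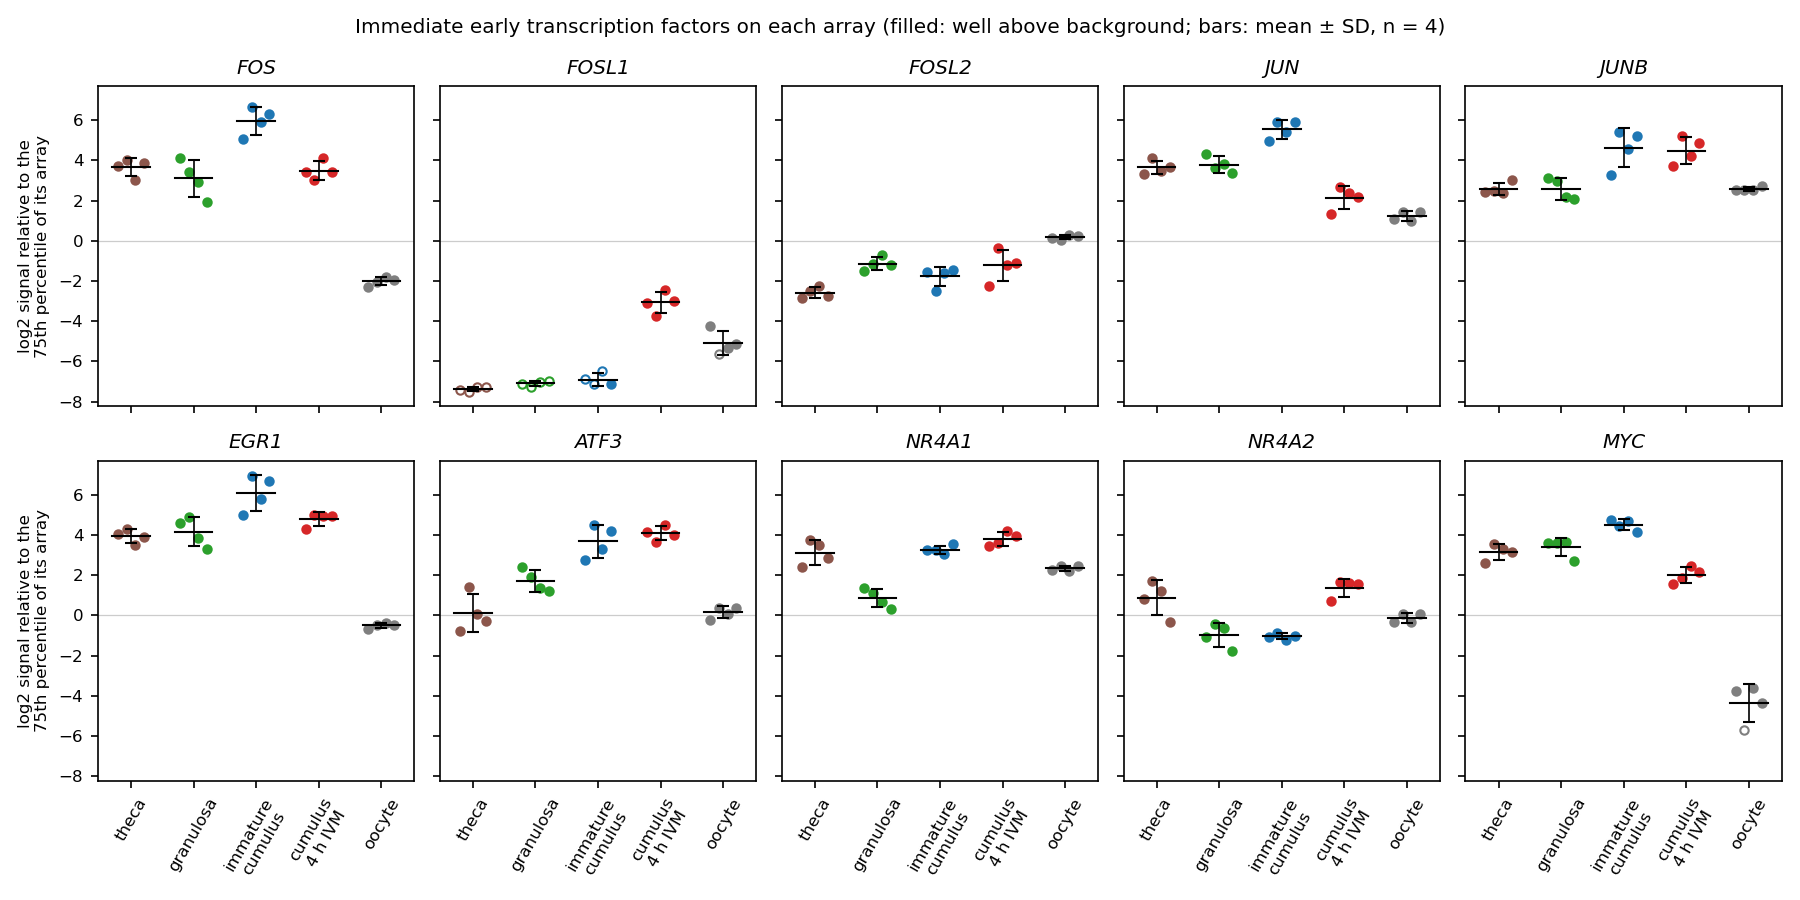
Level of each of the 10 factors on each of the 20 arrays, as log2 signal relative to the 75th percentile of its array (vertical axis), by cell group (horizontal axis). Filled points were well above background, open points were not, and bars give the mean ± SD of 4 arrays. FOS, JUN, and MYC fell from the immature cumulus to the cumulus after IVM with no overlap, whereas FOSL1 was above background on all 4 arrays of the cumulus after IVM and on 1 of 4 of the immature cumulus.

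FOS, the founding Fos gene of AP-1, had levels of 5.05, 6.67, 5.89, and 6.31 on CC replicates 1 to 4, and of 3.41, 3.02, 4.12, and 3.43 on the 4 IVM replicates. Every CC array lay above every IVM array. The mean fell from 5.98 ± 0.70 to 3.49 ± 0.45 (SD, n = 4), a log2 difference of -2.48 (SE 0.36, adjusted p = 7.2e-04), or 5.60-fold lower. Its 2 probes, which share a run of only 7 bases, gave differences of -2.61 and -2.35.

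FOSL1 encodes FRA-1, a Fos protein that lacks the activation domain of FOS. Its levels were -6.87, -7.13, -6.47, and -7.13 on the CC arrays, of which only replicate 4 was counted as above background, and by 1 of its 4 spots. After IVM they were -3.08, -3.74, -2.43, and -3.01, all above background. The groups were far apart, and FOSL1 was at least 5.09-fold higher after IVM (measured means -6.90 and -3.06, adjusted p = 1.7e-05). The bound sets the IVM mean against the dimmest signal counted as above background on each CC array. Both FOSL1 sequences printed above, each spotted as 2 probes, gave the same direction, with fitted differences of 3.29 and 3.16 for the other probe and 4.43 and 4.06 for the zipper probe.

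FOSL2, which encodes the related FRA-2, had levels of -1.57, -2.49, -1.59, and -1.45 in CC and of -2.25, -0.35, -1.23, and -1.09 after IVM. The groups overlapped, and the difference of 0.55 (95% confidence interval -0.33 to 1.43, adjusted p = 0.27) did not pass. Its 2 probes disagreed, with 1 giving a difference of 1.09 (adjusted p over all probes 0.076) and the other 0.01 (0.99). The gene value therefore averages an apparent rise at one probe and none at the other. The probe with the rise was the dimmer, at -4.30 in CC and -3.21 after IVM, above background on 3 of 4 arrays of each group. The probe without it was at 0.75 and 0.76, above background on 4 of 4 arrays of each group.

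Among the partners, JUN had the largest fall of the 10 genes. JUN levels were 4.94, 5.92, 5.43, and 5.89 in CC and 1.35, 2.68, 2.37, and 2.19 after IVM, with no overlap. The mean fell from 5.54 ± 0.46 to 2.14 ± 0.57 (SD, n = 4), a difference of -3.40 (SE 0.33, adjusted p = 6.4e-05), or 10.6-fold lower. Only 62 of the 22550 genes fell further. Its 2 distinct probe sequences, each on the array as 2 probes, gave differences of -3.67 to -3.65 and of -3.14 to -3.11, the first and second pair sharing no run longer than 7 bases.

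JUNB, the partner with weaker activating capacity on many promoters, kept overlapping levels. They were 3.27, 5.43, 4.57, and 5.20 in CC and 3.70, 5.21, 4.21, and 4.85 after IVM. The difference was -0.13 (95% confidence interval -1.22 to 0.97, adjusted p = 0.85), an interval wide enough to hold a change of more than 2-fold in one direction and nearly that in the other. Its sign turned when CC replicate 2 or 4 or IVM replicate 1 was left out.

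EGR1, a zinc finger activator induced through ERK signalling, had levels of 4.98, 6.93, 5.79, and 6.67 in CC and of 4.28, 4.99, 4.96, and 4.93 after IVM. The groups touched, since CC replicate 1 lay just below IVM replicate 2. The mean fell from 6.09 ± 0.88 to 4.79 ± 0.34 (SD, n = 4), a difference of -1.30 (SE 0.40, adjusted p = 0.027), or 2.46-fold lower. The call was lost when any 1 of 4 arrays was left out, with an adjusted p of 0.066 without CC replicate 2, 0.067 without CC replicate 4, 0.070 without IVM replicate 1, and 0.054 without IVM replicate 4.

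ATF3, which can repress or activate depending on its dimer partner, had levels of 2.73, 4.51, 3.31, and 4.20 in CC and of 4.15, 3.67, 4.52, and 3.99 after IVM. The CC arrays spread widely and enclosed 3 of the 4 IVM values. The difference was 0.39 (95% confidence interval -0.46 to 1.25, adjusted p = 0.42), and it was -0.10 in the deposited log2 table.

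NR4A2, or NURR1, rose. Its levels were -1.06, -0.87, -1.23, and -1.01 in CC and 0.70, 1.67, 1.59, and 1.56 after IVM, with no overlap. The mean went from -1.04 ± 0.15 to 1.38 ± 0.45 (SD, n = 4), a difference of 2.42 (SE 0.25, adjusted p = 8.5e-05), or 5.36-fold higher. The difference was 2.43 at 1 probe and 2.41 at the other, but these share 47 of 60 bases and are close to a repeat of 1 measurement.

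NR4A1, or NUR77, had levels of 3.24, 3.26, 3.03, and 3.54 in CC and of 3.44, 3.59, 4.19, and 3.97 after IVM. Only CC replicate 4 reached into the IVM range. The difference of 0.53 (95% confidence interval 0.03 to 1.03, adjusted p = 0.075) did not pass, although it did under 7 of 21 alternatives. Among these was slide as a random block, which cannot separate slide from IVM. Its SE was 0.14, against 0.22 in the main fit. Its 4 probes all gave higher values after IVM, by 0.62, 0.91, 0.42, and 1.03, of which those with 0.91 and 1.03 passed, with adjusted p over all probes of 0.034 and 0.0059. The probes with 0.62 and 0.42 share 58 of 60 bases, while the other two share no run longer than 6 bases with any, and the gene value sits below those of the probes that passed.

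MYC, which acts on genes of growth and ribosome synthesis, fell. Its levels were 4.73, 4.43, 4.70, and 4.15 in CC and 1.54, 1.84, 2.44, and 2.16 after IVM, with no overlap. The mean fell from 4.50 ± 0.27 to 2.00 ± 0.39 (SD, n = 4), a difference of -2.51 (SE 0.24, adjusted p = 6.9e-05), or 5.68-fold lower. The 2 probes gave -2.55 and -2.46.

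**Figure D2:**
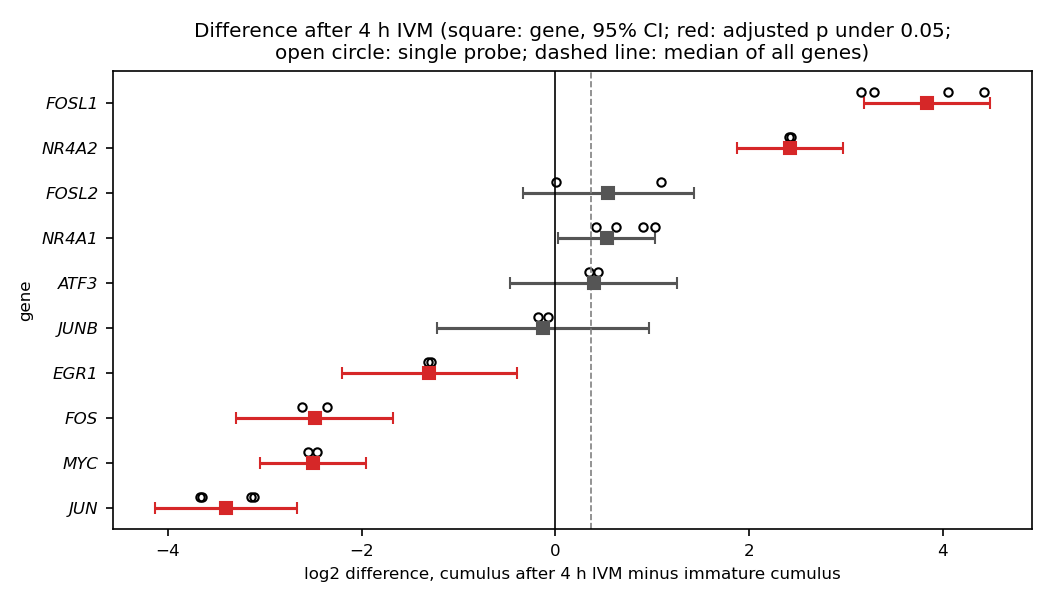
Difference of the cumulus after 4 h IVM minus the immature cumulus on the log2 scale (horizontal axis) for each factor (vertical axis). Squares give the gene value with its 95% confidence interval, red where the adjusted p was under 0.05, open circles the single probes, and the dashed line the median of all genes at 0.37. JUN, MYC, FOS, and EGR1 lie below 0, NR4A2 and FOSL1 above, and the 2 probes of FOSL2 lie apart at 0.01 and 1.09.

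The AP-1 genes thus did not move as 1 block. Within the Fos family FOS fell, FOSL1 rose, and FOSL2 did not pass, and within the Jun family JUN fell while JUNB did not pass. In the NR4A family NR4A2 rose, and NR4A1, which did not pass, was also higher after IVM at all 4 of its probes. Differences between family members were not themselves tested. The related genes below place these values in their pathways.

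Of 12 further immediate early transcription factors, 10 were on the array by name, and 2 rose, 1 fell, and 7 did not pass. NR4A3, the remaining NR4A receptor, rose by 4.56 (SE 0.43, adjusted p = 5.7e-05), and CSRNP1 by 1.48 (adjusted p = 0.049). EGR4 was the one that passed as lower (adjusted p = 6.9e-04). It was above background on 4 of 4 CC arrays and 0 of 4 IVM arrays. Its mean in CC was itself below the bound for the IVM arrays, so no fold is given. The mean of EGR4 was 1.49 in OO, against -4.82 in CC, and any part of oocyte transcripts in its fall was not tested. FOSB, the Fos gene most like FOS, differed by -0.19 (SE 0.24, adjusted p = 0.53), with means of 6.52 in CC and 6.33 after IVM, and IER2 by -0.47 (adjusted p = 0.30). The median difference of the list was -0.06, against 0.37 over all genes and 0.05 over those above background on all 8 arrays.

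Of 11 AP-1 partners and related bZIP factors on the array, 6 rose, 1 fell, and 4 did not pass, with a median of 1.15. JDP2, a repressive partner of JUN, rose from -4.87 to -0.53, by 4.34 (SE 0.22, adjusted p = 3.3e-06). CREM, whose gene encodes the cAMP-inducible repressor ICER, rose by 4.25 (SE 0.30, adjusted p = 1.2e-05). ATF4 rose by 1.97 and the small Maf factor MAFF by 1.77. MAFK was counted among the 6 although it was above background on 0 of 4 CC arrays and 1 of 4 IVM arrays. ATF7 was the one that fell, by 1.01 (adjusted p = 0.010).

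Among 14 upstream activators, 5 rose and 9 did not pass, with a median of 0.03. RPS6KA1 and RPS6KA3, ribosomal S6 kinases that act below ERK, rose by 2.22 and 1.50. ELK4 and CRTC1 passed from levels that were above background on 2 of 4 CC arrays, and were at least 1.08-fold and at least 1.77-fold higher. SRF, which binds the promoters of FOS and EGR1, differed by -0.67 (adjusted p = 0.14), and CREB1 by -0.35 (adjusted p = 0.34).

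In the MYC network, 2 of 10 genes rose, 3 fell, and 5 did not pass, with a median of -0.24. MXD3, which competes with MYC for MAX, fell by 2.19 (SE 0.28, adjusted p = 3.4e-04). MXD1 of the same family rose by 1.05, and MAX itself by 0.74 (adjusted p = 0.039). MXI1 fell by 0.80.

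Of 4 co-regulators of EGR and NR4A factors, NAB1, a corepressor of EGR1, rose by 2.62 (SE 0.22, adjusted p = 2.7e-05). RXRA and RXRB, the retinoid receptors that pair with NR4A1 and NR4A2, fell by 0.76 and 0.97. NAB2, itself a target of EGR1, differed by 0.66 (adjusted p = 0.11). The median was -0.05.

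The 10 immediate early effectors, genes that are induced as fast but encode no transcription factor of this kind, divided. Here 7 rose, 2 fell, and 1 did not pass, with a median of 1.58. ZFP36, which binds AU-rich motifs and promotes decay of the transcripts that hold them, fell by 3.70 (SE 0.28, adjusted p = 1.6e-05). CYR61, a secreted matrix protein, fell by 3.41, close to the fall of JUN. SGK1, a kinase induced by FSH in granulosa cells, rose by 3.51, and the survival gene IER3 by 2.20. ARC was counted among the 7 although it was above background on 2 CC arrays and 0 IVM arrays.

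Of the 8 stress genes, 3 rose, 3 fell, and 2 did not pass, with a median of -0.20. GADD45A rose by 3.1 and DDIT3 by 2.19, while the heat shock gene HSPA1A fell by 2.68 and HMOX1 by 1.48. The summed level of the list was 101 to 117 in CC and 150 to 177 after IVM, and its part in the results on the 10 factors was not tested. Of the 5 early cumulus genes on the array, HAS2, AREG, and EREG rose as given above, BTC fell by 1.11, and PTX3 did not pass, with a median of 5.14 as fitted. Without the fitted values, which depend on the background, at least 8.12-fold is the bound of its median gene, EREG.

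**Figure D3:**
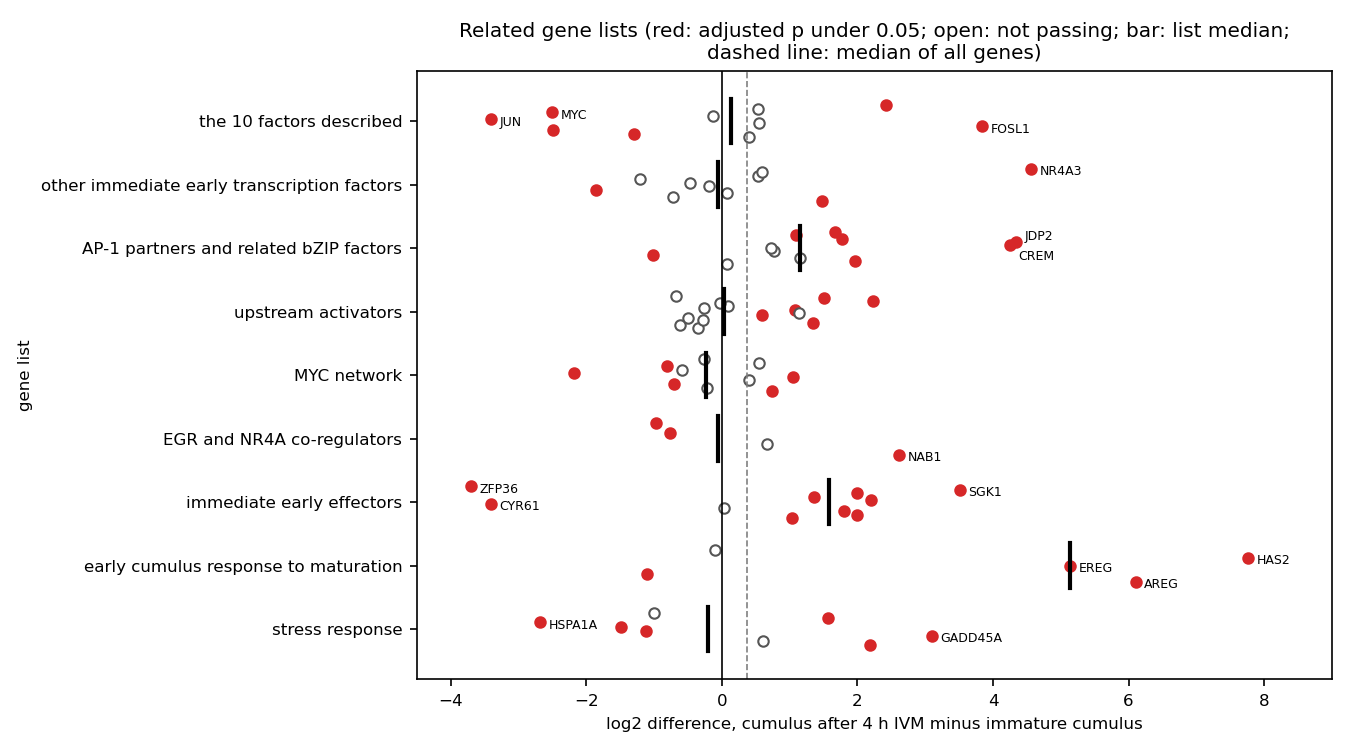
Difference of the cumulus after 4 h IVM minus the immature cumulus (horizontal axis, log2) for every gene on the array of each list (vertical axis). Red points had an adjusted p under 0.05, open points did not pass, short bars mark the list median, and the dashed line marks the median of all genes at 0.37. The 10 factors range from -3.40 to 3.84 and the effectors from -3.70 to 3.51, whereas the bZIP partners lie mostly above, with CREM and JDP2 at 4.25 and 4.34.

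The arrays of CC differed among themselves in a way that several factors shared. FOS, JUN, JUNB, EGR1, and ATF3 all had replicate 2 highest, then 4, then 3, and replicate 1 lowest, and IER2 and ZFP36 had the same order. Their spread was wide, from 4.98 to 6.93 for EGR1 and from 3.27 to 5.43 for JUNB. This order was found in 14.5% of all genes and in 7.84% of the 13663 genes above background on all 4 CC arrays. MYC had replicate 1 highest and replicate 4 lowest, and NR4A1 and NR4A2 were close to level, with an SD of 0.21 and 0.15. Replicate 1 and 2 shared a slide, as did 3 and 4, so the order does not follow the slides.

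In GC a different order was shared. FOS had levels of 4.13, 3.42, 2.92, and 1.95 on replicates 1 to 4, JUNB of 3.11, 2.97, 2.15, and 2.10, ATF3 of 2.39, 1.93, 1.35, and 1.22, and NR4A1 of 1.36, 1.10, 0.68, and 0.34. EGR1 likewise had both arrays of the first slide, at 4.58 and 4.92, above both of the second, at 3.85 and 3.32. The order of FOS was that of 4.47% of all genes, and the order of EGR1 that of 5.48%. The share of all genes with both arrays of the first slide higher was not computed. Here the split follows the slides, and whether slide or sample sets it was not tested. After IVM, replicate 1 was lowest for JUN, JUNB, EGR1, NR4A1, NR4A2, MYC, and FOSL2, but not for FOS, FOSL1, or ATF3. The full order of JUN, EGR1, and NR4A2 was that of 4.37% of all genes. That of JUNB and FOSL2 was found in 6.1%, and that of NR4A1 and MYC in 2.28%. The share of all genes with replicate 1 lowest in any order was not computed.

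**Figure D4:**
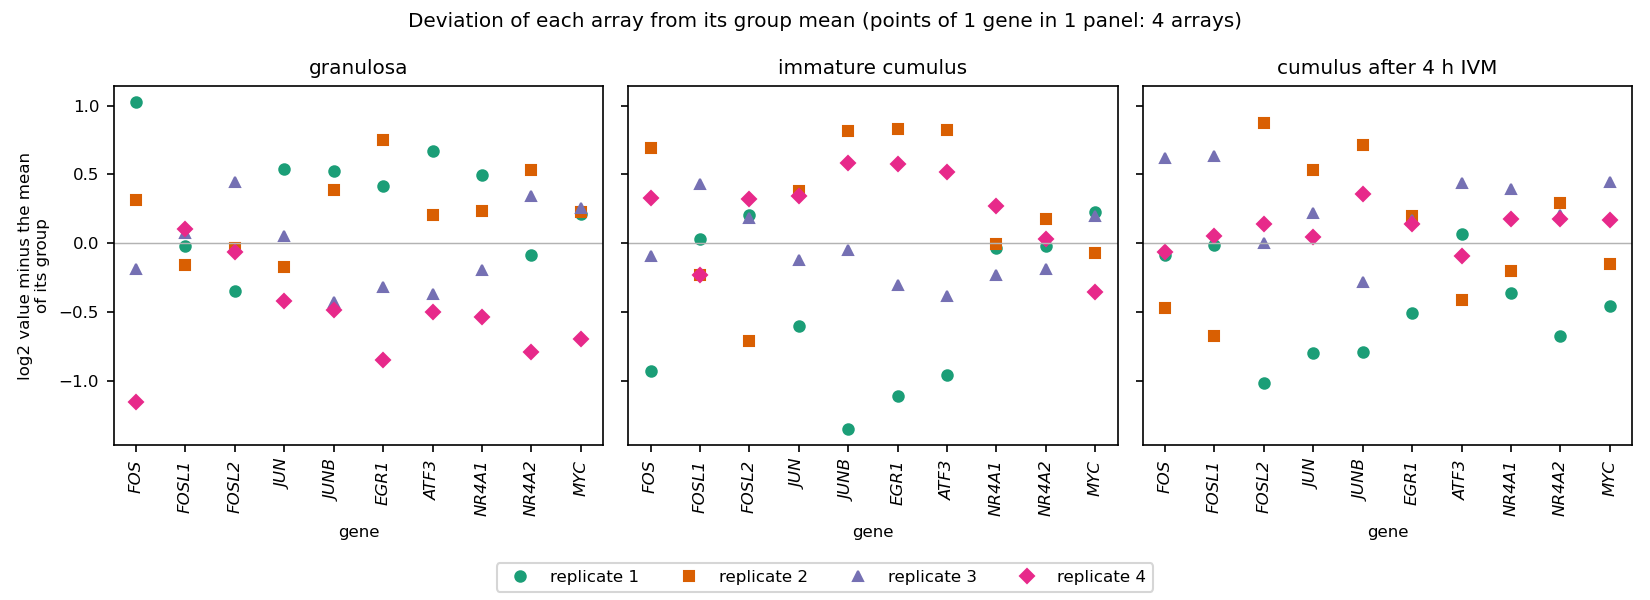
Log2 value of each array minus the mean of its group (vertical axis) for the 10 factors (horizontal axis) in granulosa cells, immature cumulus, and cumulus after 4 h IVM, with 1 symbol per replicate. In the immature cumulus, replicate 2 lies highest and replicate 1 lowest for FOS, JUN, JUNB, EGR1, and ATF3, and in granulosa cells replicates 1 and 2 lie above 3 and 4 for FOS, JUNB, EGR1, ATF3, and NR4A1.

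The comparison of the 4 collected cell types asks where in the follicle each factor was most abundant. All 10 factors differed among TH, GC, CC, and OO by the F-test of limma, in which 71.3% of all genes passed. The closest cells were GC and CC, both of the granulosa lineage. There FOS, JUN, JUNB, EGR1, ATF3, and NR4A1 were higher in CC, 6 of the 10, none was lower, and 4 did not pass. Of all genes, 9.88% passed in this comparison, 5.28% higher and 4.61% lower in CC. FOS was higher in CC by 2.87 (SE 0.41, adjusted p = 4.3e-04), NR4A1 by 2.40 (SE 0.28, adjusted p = 7.2e-05), and JUNB by 2.03 (SE 0.38, adjusted p = 0.0029). For JUN the difference was 1.75, for EGR1 1.92, and for ATF3 1.97.

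These 6 differences kept their sign within each slide, where 2 arrays stood against 2. Within the second slide all 6 passed, and within the first none did by limma, with 3 of the 10 factors at an unadjusted p under 0.05. The estimates within the first slide were lower, at 2.09 for FOS and 1.31 for JUNB. That slide holds both the lowest and the highest CC array named above, and the highest GC arrays. The reason for the lower estimates was not tested. Few genes of any kind passed within 1 slide, 0.820% within the first and 1.99% within the second.

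Against TH, 7 factors were higher in CC, 1 was lower, and 2 did not pass, where 31.8% of all genes passed, 17.4% higher and 14.4% lower. The one that was lower in CC was NR4A2, with a difference of -1.91 (SE 0.36, adjusted p = 7.0e-04). NR4A1 differed between CC and TH by 0.14 (SE 0.28, adjusted p = 0.81). Within the first slide 1 of the 10 passed and within the second 5, where 14.7% and 18.4% of all genes passed, all 8 called differences keeping their sign in both. FOSL2 lost its call under 6 of 31 alternatives, among them both slides and without TH replicate 1 (adjusted p = 0.0503) or CC replicate 4 (0.053). MYC lost it under 4, among them both slides, quantile normalization (0.066), and without TH replicate 1 (0.051). Between GC and TH, where 26.3% of all genes passed, 14.5% higher and 11.8% lower, FOSL2 and ATF3 were higher in GC by 1.44 and 1.60. NR4A1 and NR4A2 were lower in GC, with differences of -2.25 and -1.85. The 6 others did not pass. ATF3 lost its call without TH replicate 1 (adjusted p = 0.059) or GC replicate 1 (0.057). Within the first slide 1 of the 10 passed and within the second 3, where 10.04% and 12.5% of all genes passed.

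The oocyte differed from CC in all 10 factors, 3 being higher in OO and 7 lower, with 63.7% of all genes passing, 31.8% higher and 32% lower. The difference of OO minus CC was -8.86 for MYC (SE 0.39, adjusted p = 1.5e-11), -7.98 for FOS (SE 0.41, adjusted p = 9.8e-11), and -6.59 for EGR1 (SE 0.40, adjusted p = 5.9e-10). For JUN, ATF3, JUNB, and NR4A1, which were also lower, it was -4.32, -3.54, -2.03, and -0.92. FOSL2 was higher in OO by 1.96 (SE 0.23, adjusted p = 1.9e-06) and NR4A2 by 0.92 (adjusted p = 0.038). FOSL1 was above background on 3 of 4 OO arrays and was at least 1.25-fold higher than in CC. Under normexp background correction the sign of FOSL1 turned, to -0.72, and passed in that direction (adjusted p = 0.0060). The same held against GC (adjusted p = 0.0010) and TH (0.025). In the deposited table FOSL1 did not pass against CC (adjusted p = 0.35) or GC (0.22). NR4A2 lost its call against CC under 8 of 31 alternatives. Against GC, 4 factors were higher in OO, 5 lower, and 1 did not pass (68.6% of all genes passed, 30.7% higher and 37.9% lower). FOSL1 is among these 4, but its mean in OO was below the bound for GC, so no fold is given. Against TH 2 were higher, 6 lower, and 2 did not pass (64.6%, 32.5% higher and 32.1% lower). Of the 6, NR4A1 lost its call under 6 of 31 alternatives and NR4A2 under 7, both of them with the array median, in the deposited table, and without TH replicate 2 (adjusted p = 0.086 and 0.095), TH replicate 3 (0.073 and 0.071), or OO replicate 3 (0.052 and 0.060). NR4A2 also lost it without OO replicate 1 (0.059).

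Levels per cell type give each factor an order, in which neighbors often could not be separated. The comparisons of CC after IVM with TH, GC, and OO came from a fit of all 20 arrays and carry the slide of the IVM arrays with them. In these, 4 factors were higher after IVM than in TH, 2 lower, and 4 did not pass (43.7% of all genes passed, 25.3% higher and 18.5% lower). Against GC 5 were higher, 2 lower, and 3 did not pass (28.1%, 13.9% higher and 14.3% lower), and against OO 9 were higher and 1 lower (80.2%, 49.8% higher and 30.4% lower).

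FOS was highest in CC at 5.98, followed by TH at 3.67 ± 0.44, CC after IVM at 3.49, GC at 3.11 ± 0.92, and OO at -2.01 ± 0.21 (SD, n = 4). TH, CC after IVM, and GC did not pass against each other, with a difference of -0.17 between CC after IVM and TH (adjusted p = 0.73) and of 0.39 between CC after IVM and GC (adjusted p = 0.53). For EGR1 the means were 6.09 in CC, 4.79 after IVM, 4.17 ± 0.72 in GC, 3.95 ± 0.34 in TH, and -0.50 ± 0.13 in OO (SD, n = 4). After IVM it was 0.84 above TH (adjusted p = 0.076) and 0.63 above GC (adjusted p = 0.25).

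JUN and MYC after IVM lay below both GC and TH. For JUN the order was CC at 5.54, GC at 3.79 ± 0.41, TH at 3.65 ± 0.34, CC after IVM at 2.14, and OO at 1.23 ± 0.23 (SD, n = 4), with only GC and TH not separated (adjusted p = 0.74). CC after IVM differed by -1.65 from GC (adjusted p = 2.2e-04) and by -1.50 from TH (adjusted p = 3.3e-04). It lay above OO by 0.92 (adjusted p = 0.0088), a sign that turned to -0.090 in the deposited table. For MYC the order was CC at 4.50, GC at 3.40 ± 0.47, TH at 3.15 ± 0.42, CC after IVM at 2.00, and OO at -4.36 ± 0.95 (SD, n = 4). CC and GC were not separated (difference 1.10, adjusted p = 0.096), nor were GC and TH (adjusted p = 0.72). After IVM, MYC differed by -1.40 from GC (adjusted p = 0.0071) and by -1.16 from TH (adjusted p = 0.017), the latter lost without TH replicate 2 (0.054) or IVM replicate 1 (0.055).

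JUNB and ATF3 were higher than in GC, TH, and OO both in CC and in CC after IVM. JUNB had means of 4.62 in CC and 4.49 after IVM, and of 2.58 ± 0.53 in GC, 2.58 ± 0.09 in OO, and 2.57 ± 0.29 in TH (SD, n = 4), where the last 3 could not be separated. After IVM it was above GC by 1.91 (adjusted p = 0.0010), above TH by 1.92 (5.8e-04), and above OO by 1.91 (2.9e-04). ATF3 had 4.08 after IVM and 3.69 in CC, then 1.72 ± 0.54 in GC, 0.15 ± 0.30 in OO, and 0.12 ± 0.94 in TH (SD, n = 4). OO and TH were not separated (adjusted p = 0.95), and the TH arrays alone ranged from -0.77 to 1.44.

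The 2 receptors were lower in GC than in TH, the neighboring cells of the follicle wall. The TH samples also carried the endothelial markers given above, whose part in this difference was not tested. NR4A1 was 3.80 ± 0.34 after IVM, 3.27 ± 0.21 in CC, 3.12 ± 0.62 in TH, 2.35 ± 0.12 in OO, and 0.87 ± 0.45 in GC (SD, n = 4). CC after IVM, CC, and TH could not be separated step by step (adjusted p = 0.075 and 0.81), while OO lay 1.48 above GC (adjusted p = 2.2e-04). NR4A2 was 1.38 after IVM, 0.87 ± 0.87 in TH, -0.13 ± 0.23 in OO, -0.98 ± 0.59 in GC, and -1.04 in CC (SD, n = 4). TH and CC after IVM were not separated (difference 0.51, adjusted p = 0.25), nor were GC and CC (adjusted p = 0.94). NR4A2 in OO was 0.86 above GC with an adjusted p of 0.048, which was lost under 17 of 31 alternatives.

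The remaining Fos genes had the oocyte or the cultured cumulus on top. FOSL2 was 0.18 ± 0.11 in OO, -1.14 ± 0.33 in GC, -1.23 ± 0.78 after IVM, -1.78 ± 0.48 in CC, and -2.58 ± 0.27 in TH (SD, n = 4). GC, CC after IVM, and CC were not separated by their neighbors' tests (adjusted p = 0.86 and 0.27). FOSL1 was highest after IVM, above OO by 2.03 (SE 0.28, adjusted p = 2.3e-06), and was above background on no TH or GC array. After IVM it was at least 4.67-fold higher than in TH and at least 3.91-fold higher than in GC.

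Genes with the most similar pattern over the 20 arrays are given by Pearson's r, as a description, since arrays of 1 group share their cell type and all share the scaling. FOS and EGR1 were nearest to each other among the 10, with r of 0.98, and EGR1 was nearest overall to IER2 at 0.99. MYC followed both, with r of 0.94 to FOS and 0.93 to EGR1, and its nearest gene was TRIP6 at 0.98. JUN had an r of 0.85 to FOS, with DFFB nearest at 0.95. JUNB and ATF3 had an r of 0.85 to each other, and their nearest genes were FAM71A at 0.92 and PSMC4 at 0.95. FOSL1 ran against JUN, with r of -0.67, and its nearest gene was SRXN1 at 0.97. Since FOSL1 was above background on no TH or GC array and on 1 of 4 CC arrays, these r partly describe background. NR4A1 and NR4A2 had an r of 0.63, and were nearest to LTBP1 at 0.87 and FGF18 at 0.90. FOSL2 ran against FOS at -0.76 and was nearest to a probe named for an endogenous retrovirus at 0.95, then to CSNK1D at 0.95.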

How the data were processed

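Per the labels, total RNA was extracted with Trizol, treated with DNase, and hybridized in 1 color. The authors deposited Feature Extraction output (version 10.7.3.1), with intensity per spot before any normalization between arrays, and a series table of log2 values. That deposited log2 table equals log2 median pixel signal minus the array median within 5.0e-09, with the background not subtracted. Probe annotation was on UMD 3.1.

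Here control and outlier spots were dropped, log2 processed signal was centered on each array's 75th percentile, and a gene's spots were summarized by their median, giving 22550 genes. Of the 61325 probes, 9779 had no gene name, and 734 of them were named by accession through a RefSeq table. Tests used limma 3.58.1 (lmFit and eBayes, R 4.3.3) and were two-sided, with Benjamini-Hochberg adjustment over all genes and a threshold of 0.05. The fits were the 8 CC and CC after IVM arrays, the 16 arrays of the 4 cell types, and all 20 arrays for CC after IVM against TH, GC, and OO. A group with fewer than 3 of 4 arrays well above background was given only a bound, in which the brighter mean is set against, on each dim array, its measured value or the dimmest probe called well above background there, whichever was higher. Python 3.11.15 (numpy 2.4.6, pandas 2.3.3, matplotlib 3.10.9) was used for probe sequences and plots. The fits were tested on simulated data. The number of arrays limits the precision.

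All 10 factors are named, and from each related list up to 4 genes that passed, with others only where a count turns on them or, for FOSB, IER2, SRF, CREB1, and NAB2, chosen after their values were seen. The 10 factors and the lists were chosen with earlier results of these data known. KLF2, KLF10, JUND, PTGS2, and TNFAIP6 were not found by name and were not analysed here, nor were promoter and protein sequences. Alternatives were quantile normalization, the array median, the percentile over probes above background, normexp (offset 50), the deposited table, the mean over probes or the brightest probe, a filter on dim genes, eBayes with trend, arrayWeights, blocks of replicate or slide, other sets of arrays in the fit, the methods' analysis of variance, and leaving out each array.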

Additional observations from a re-analysis of the deposited data

Results flagged for a closer look

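In 6 of 50 groups of 4 arrays, 1 array lay far from the other 3, with a gap, as a share of the range of the group, above Dixon's 95% critical value. For independent groups chance would give about 1 in 20. These groups share the same 20 arrays and several genes are correlated, so 6 of 50 cannot be set against that rate. FOSL2 on CC replicate 2 was -2.49, against -1.59 to -1.45 on the others. JUNB on TH replicate 4 was 3.00, against 2.38 to 2.47, and JUNB on OO replicate 4 was 2.72, against 2.53 to 2.55, a small gap in a very narrow group. EGR1 on IVM replicate 1 was 4.28, against 4.93 to 4.99. NR4A2 on the same array was 0.70, against 1.56 to 1.67. MYC on GC replicate 4 was 2.70, against 3.61 to 3.65. Causes were not tested.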

How the results depend on the processing

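Over 21 alternatives, 5 to 7 of the 10 factors passed between CC and CC after IVM. FOS, FOSL1, JUN, NR4A2, and MYC kept their direction and their call under all of them. Over all genes the number called, 10332, was 6453 under quantile normalization, 17665 under normexp, and 6752 with the filter on dim genes. The number higher, 6827, was then 2787, 14711, and 3259, and was 10320 with slide as a random block, for which the estimated correlation within slides was -0.26. Leaving out 1 array gave 6530 to 10989 genes called and 3712 to 7608 higher. The counts were 6530 and 3712 without CC replicate 1, 6604 and 3827 without CC replicate 3, and 4191 higher without IVM replicate 4. Arrays of CC and CC after IVM with the same replicate number had correlations of -0.09, -0.18, -0.22, and -0.03 in their deviations. These few values cannot decide whether the numbers pair the samples. JUNB had the same order of replicates in both groups, and FOS, JUN, EGR1, and ATF3 did not. With the replicate number as a block, the SE fell from 0.49 to 0.25 for JUNB and rose from 0.24 to 0.28 for MYC. Under that block 4153 genes were higher, and it changed no call among the 10 factors in any comparison.

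Some signs turned. ATF3 after IVM was -0.10 in the deposited table, and JUNB was 0.15 without CC replicate 2, 0.07 without CC replicate 4, and 0.14 without IVM replicate 1, with a range of -0.58 to 0.15 when single arrays were left out. FOSL1 in OO turned to -0.56 against TH, -0.90 against GC, and -0.72 against CC under normexp, each passing as lower in OO. JUN after IVM turned to -0.090 against OO in the deposited table. Within the first slide the factors called were 1 for GC against TH, 1 for CC against TH, and 0 for CC against GC (limma, 3 at an unadjusted p under 0.05), where 10.04%, 14.7%, and 0.820% of all genes were called. Within the second they were 3, 5, and 6, where 12.5%, 18.4%, and 1.99% were. With 2 arrays against 2, these have little power. The cause of the other changes was not tested. FOSL1 in TH, GC, and CC is limited by background. No arrays of 1 group held identical values, so none was merged.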
